A study of Homo sapiens with 8 samples.

Results

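The enzymes that write and remove DNA methylation were followed in H9, a line of human embryonic stem cells in wide use, on soft and stiff gels. The list holds 8 genes chosen by name, DNMT1, DNMT3A, DNMT3B, DNMT3L, TET1, TET2, TET3 and UHRF1. Of these, 7 have a row of their own among the 26909 gene symbols found in the tables of both days. DNMT1 does not, because the authors' tables merge it with S1PR2, a sphingosine phosphate receptor gene, into 1 locus whose value cannot be split between them. The merged locus is described beside the 7 members and is not counted with them.

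The 4 groups were cells at day 3.5 of mesoderm induction on 400 Pa gels, the same on 60 kPa gels, undifferentiated cells (day 0) on 400 Pa and undifferentiated cells on 60 kPa. Induction used bFGF, Activin, VEGF and BMP4, and the cells of all groups grew in medium conditioned by feeder cells. Each group holds 2 libraries of the same cell line, and the labels do not say whether they came from separate cultures. The deposited value is 1 FPKM (fragments scaled to transcript length and library size) per gene and group, so no SD between libraries can be given, and the depth of the libraries is unknown.

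CpG methylation is set by the de novo enzymes DNMT3A and DNMT3B, which act with the catalytically inactive cofactor DNMT3L. It is copied at replication by DNMT1, which UHRF1 recruits to half-methylated DNA. The TET enzymes oxidise 5-methylcytosine, the first step of active demethylation. Human embryonic stem cells are known for high DNMT3B and TET1, and TET2 and TET3 are better known from differentiated cells.

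At day 3.5 DNMT3B was far lower than at day 0 on both gels, and TET2 was higher on both. The other members lay within a change of 2-fold between the days. No member was called between the gels, at a q-value below 0.05, on either day in the authors' deposited tables.

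The members spanned 3 tiers of level in every group. DNMT3B stood highest, DNMT3A, TET1 and the merged DNMT1 locus lay between 23.1 and 52.8 FPKM, and TET2, TET3 and UHRF1 lay between 1.72 and 7.01 FPKM. DNMT3L was below 1 FPKM in all 4 groups. FPKM is a value per transcript length, so these levels can be set beside each other. With no spread between libraries, it cannot be said whether neighbours in this order, such as DNMT3A and TET1, differ.

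**Figure D1:**
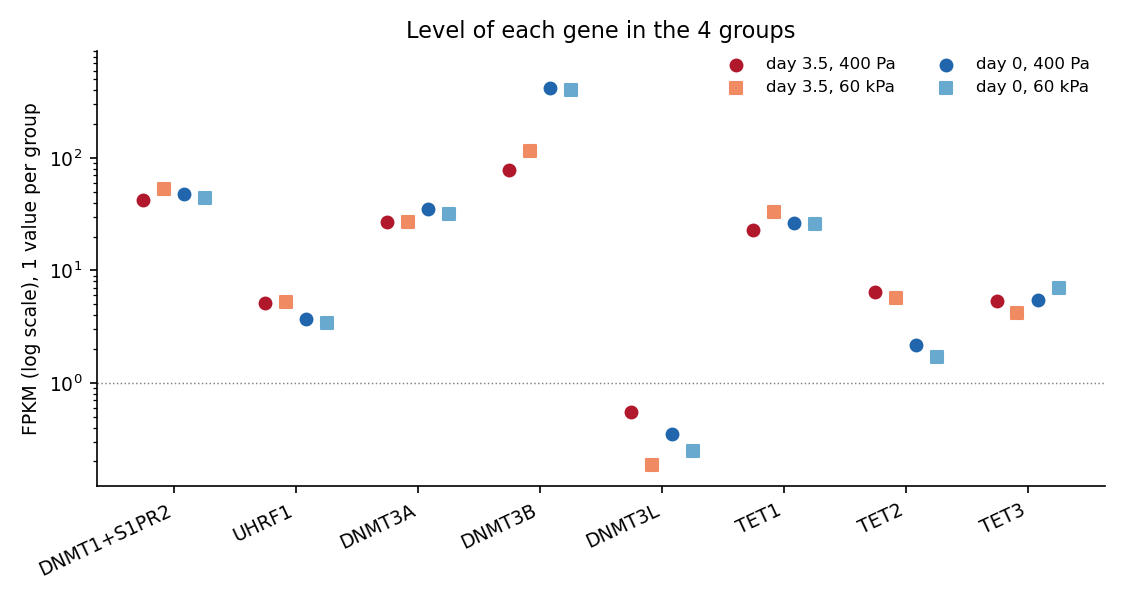
FPKM of the 7 members and of the merged DNMT1 and S1PR2 locus (log axis), 1 point per group, with circles for 400 Pa and squares for 60 kPa; the dotted line marks 1 FPKM. DNMT3B is the gene whose 2 day 3.5 points (78.3 and 116 FPKM) lie farthest below its day 0 points (423 and 402 FPKM), and the TET2 points lie the other way round.

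DNMT3B, the main de novo methyltransferase of pluripotent cells, lies at 31350191 to 31397202 on chromosome 20 (hg19, as in the authors' tables, written 1-based). It was at 78.3 FPKM on 400 Pa and 116 FPKM on 60 kPa at day 3.5, against 423 FPKM on 400 Pa and 402 FPKM on 60 kPa at day 0. Both day 3.5 values were thus lower than both day 0 values, which also held for DNMT3A and TET3. The share of all genes ordered this way was not counted. The level at day 3.5 was 5.41 times lower on 400 Pa and 3.48 times lower on 60 kPa. On the log2(FPKM + 1) scale used for all changes below unless stated, the change was -2.42 on 400 Pa and -1.79 on 60 kPa. The pseudocount of 1 FPKM understates the change of low genes.

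DNMT3B ranked at place 1446 of 15190 genes with at least 1 FPKM on 400 Pa and at place 950 of 15257 on 60 kPa at day 3.5. At day 0 it ranked at place 351 of 14774 on 400 Pa and at place 360 of 14583 on 60 kPa. Over the genes expressed on either day, 103 had a change as low as that of DNMT3B or lower on 400 Pa (0.632%), and 171 on 60 kPa (1.07%). The tables of the 2 days were made separately and hold 1 value per group, so every comparison of days here is a description with no test. In bulk RNA, fewer cells that express a gene and less of its RNA per cell cannot be told apart.

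TET2, a dioxygenase of many somatic and blood lineages, lies at 106067032 to 106200973 on chromosome 4 (hg19). It was at 6.49 FPKM on 400 Pa and 5.65 FPKM on 60 kPa at day 3.5, against 2.19 FPKM on 400 Pa and 1.72 FPKM on 60 kPa at day 0. Both day 3.5 values were higher than both day 0 values, which also held for UHRF1. How many of all genes are ordered this way was not counted. The change was 1.23 on 400 Pa and 1.29 on 60 kPa. Changes at least as high were held by 6.60% of the expressed genes on 400 Pa and 3.73% on 60 kPa.

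Of the 6 members expressed on either day, 1 was lower by 2-fold or more and 1 was higher by 2-fold or more on each gel, namely DNMT3B and TET2. Among all expressed genes, 5.99% were lower and 9.61% were higher by that much on 400 Pa, and 4.22% and 6.71% on 60 kPa. The median change of the 6 members was -0.11 on 400 Pa and 0.07 on 60 kPa, where the median over all expressed genes was 0.00 on both. These medians are over members that differed in both directions.

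**Figure D2:**
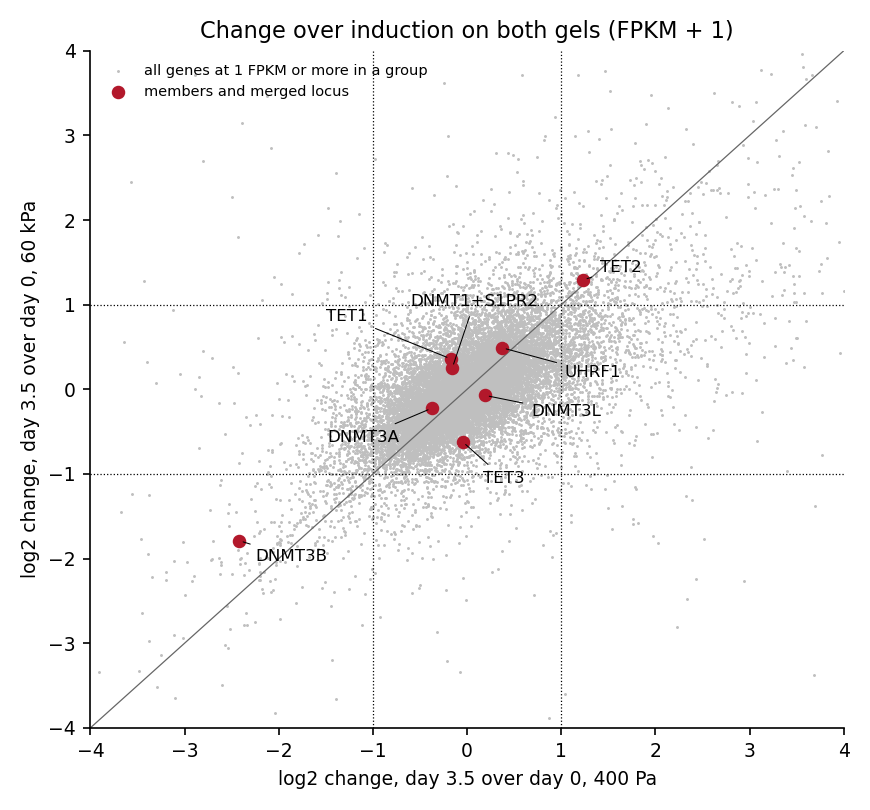
Log2 change of FPKM + 1, day 3.5 over day 0, on 400 Pa (horizontal) and on 60 kPa (vertical), for the 7 members and the merged DNMT1 locus (red) and 16964 genes with at least 1 FPKM in a group (grey); dotted lines mark 2-fold and 121 genes lie beyond the axes. DNMT3B lies past the lower line on both gels (-2.42 and -1.79), TET2 past the upper line on both (1.23 and 1.29), and the others lie inside.

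Windows at an annotated start of DNMT3B and of TET2, which differed between days in opposite directions, are shown. CpG, the substrate of these enzymes, is marked in them. The window runs from 250 bases before to 50 after the annotated start (RefSeq, GRCh38.p14), and the capitals mark each CpG. A gene can have further starts that this window does not cover, and no methylation was measured here.
DNMT3B: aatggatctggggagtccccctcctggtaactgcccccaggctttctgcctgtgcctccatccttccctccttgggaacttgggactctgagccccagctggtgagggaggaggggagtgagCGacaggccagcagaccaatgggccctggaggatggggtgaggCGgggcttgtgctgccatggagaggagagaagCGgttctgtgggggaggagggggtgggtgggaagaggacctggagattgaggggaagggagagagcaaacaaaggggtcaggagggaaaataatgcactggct
TET2: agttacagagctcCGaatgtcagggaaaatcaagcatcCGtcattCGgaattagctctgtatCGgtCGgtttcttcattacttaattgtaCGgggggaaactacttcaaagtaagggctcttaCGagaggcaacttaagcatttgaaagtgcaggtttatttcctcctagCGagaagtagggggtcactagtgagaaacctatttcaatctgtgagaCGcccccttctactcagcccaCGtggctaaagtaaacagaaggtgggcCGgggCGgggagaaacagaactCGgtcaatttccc

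The DNMT3B window, chr20:32779602-32779901 on the plus strand, held 3 CpG, and 81.8% of the 35116 promoters of this length held at least as many. It was not matched to the start of the DNMT3B locus, which is given on another build (hg19). The window may thus lie at an internal start, and its count need not hold for the main promoter of the gene. Its count is therefore not set against that of TET2. The TET2 window, chr4:105145625-105145924 on the plus strand, held 13, close to the median of 14. RefSeq windows were found for 7 of the 8 listed genes, and their CpG counts ran from 3 in DNMT3B to 45 in TET3, with 10 in TET1, 26 in DNMT3A, 30 in DNMT1 and 36 in UHRF1. The octamer ATGCAAAT, the TCF/LEF motif CTTTGAT and the GATA motif AGATAA, searched on both strands, occurred in none of the 7 windows and in 1.77%, 2.62% and 10.3% of all promoters. The E2F motifs TTTCCCGC or TTTGGCGC occurred in the UHRF1 window and in 2.27% of all promoters. The E-box CACGTG occurred in the TET2 and TET3 windows and in 7.26% of all promoters. These are matches of letters only.

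DNMT3A, the de novo enzyme that persists in differentiated cells, lies on chromosome 2 at 25451128 to 25565459 (hg19). It was at 27.0 FPKM on 400 Pa and 27.2 FPKM on 60 kPa at day 3.5, against 35.2 FPKM on 400 Pa and 32 FPKM on 60 kPa at day 0. The change between days was -0.37 on 400 Pa and -0.22 on 60 kPa, inside 2-fold. DNMT3L (chromosome 21, 45666222 to 45682099) was at 0.545 FPKM on 400 Pa and 0.187 FPKM on 60 kPa at day 3.5, against 0.353 FPKM on 400 Pa and 0.248 FPKM on 60 kPa at day 0. It did not reach the minimum of 1 FPKM in any group and is marked as not tested in the authors' deposited tables.

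The makeup of the de novo family also differed between the days. The summed FPKM of DNMT3A, DNMT3B and DNMT3L was 106 on 400 Pa and 143 on 60 kPa at day 3.5, against 459 on 400 Pa and 434.5 on 60 kPa at day 0. DNMT3B made up 74.0% of that sum on 400 Pa and 80.8% on 60 kPa at day 3.5, against 92.2% on 400 Pa and 92.6% on 60 kPa at day 0. The ratio of DNMT3B to DNMT3A was 2.90 on 400 Pa and 4.25 on 60 kPa at day 3.5, against 12 on 400 Pa and 12.6 on 60 kPa at day 0. DNMT3B was the most abundant of the family in all 4 groups.

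TET1, the main TET enzyme of embryonic stem cells, lies on chromosome 10 at 70320115 to 70460551 (hg19). It was at 23.1 FPKM on 400 Pa and 33.4 FPKM on 60 kPa at day 3.5, against 26.2 FPKM on 400 Pa and 25.8 FPKM on 60 kPa at day 0. Its change between days had opposite signs on the gels, -0.17 on 400 Pa and 0.36 on 60 kPa, both inside 2-fold and without a test. TET3, the TET enzyme known from the mouse zygote, lies on chromosome 2 at 74211398 to 74335303. It was at 5.30 FPKM on 400 Pa and 4.21 FPKM on 60 kPa at day 3.5, against 5.51 FPKM on 400 Pa and 7.01 FPKM on 60 kPa at day 0. The change was -0.05 on 400 Pa and -0.62 on 60 kPa.

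The summed FPKM of the 3 TET genes was 34.9 on 400 Pa and 43.3 on 60 kPa at day 3.5, against 33.9 on 400 Pa and 34.5 on 60 kPa at day 0. TET2 made up 18.6% of it on 400 Pa and 13.1% on 60 kPa at day 3.5, against 6.45% on 400 Pa and 4.97% on 60 kPa at day 0. TET1 made up 66.2% on 400 Pa and 77.2% on 60 kPa at day 3.5, against 77.3% on 400 Pa and 74.7% on 60 kPa at day 0. The ratio of the DNMT3 sum to the TET sum was 3.03 on 400 Pa and 3.31 on 60 kPa at day 3.5, against 13.6 on 400 Pa and 12.6 on 60 kPa at day 0. The lower ratio at day 3.5 came with a DNMT3 sum that was lower and a TET sum that was not.

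**Figure D3:**
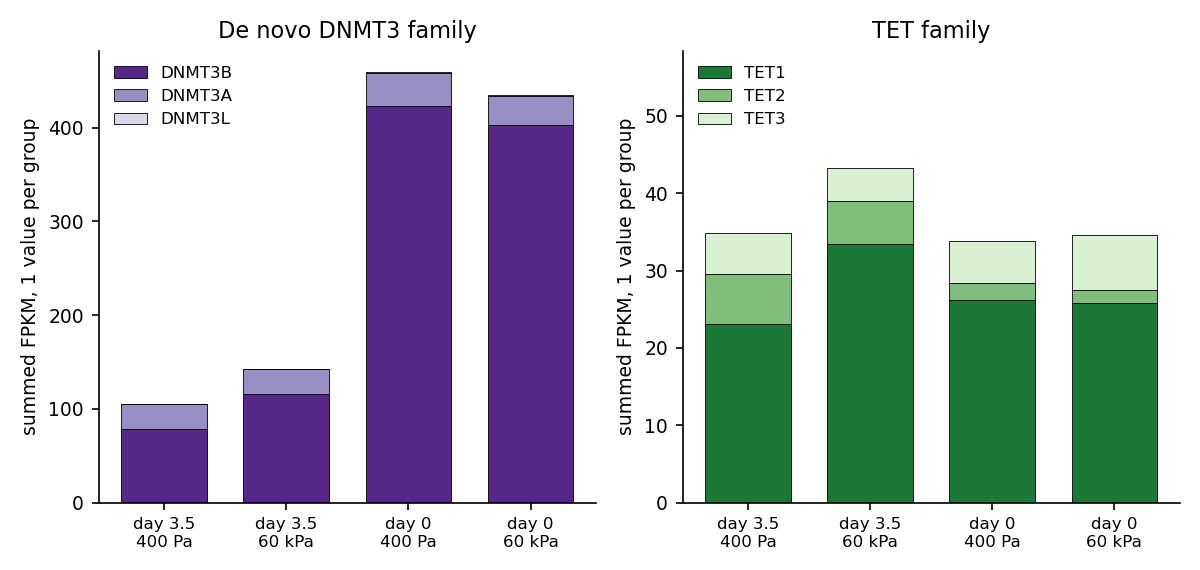
Summed FPKM of the DNMT3 family (left) and of the TET family (right) in the 4 groups, stacked by gene from 0, with 1 value per group and no error bar. The DNMT3 bars at day 3.5 (106 and 143 FPKM) are shorter than those at day 0 (459 and 434.5 FPKM), while the TET bars lie between 33.9 and 43.3 FPKM.

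Of the maintenance genes, UHRF1 (chromosome 19, 4903092 to 4962452) was at 5.13 FPKM on 400 Pa and 5.21 FPKM on 60 kPa at day 3.5, against 3.73 FPKM on 400 Pa and 3.42 FPKM on 60 kPa at day 0. Its change was 0.37 on 400 Pa and 0.49 on 60 kPa, inside 2-fold. The merged locus of DNMT1 and S1PR2 (chromosome 19, 10244020 to 10341962) was at 42.7 FPKM on 400 Pa and 52.8 FPKM on 60 kPa at day 3.5, against 47.7 FPKM on 400 Pa and 44.2 FPKM on 60 kPa at day 0. Its highest value was 1.24 times its lowest, the smallest such span beside the 1.31 of DNMT3A and the 5.41 of DNMT3B. UHRF2, the paralogue of UHRF1, was at 35.8 FPKM on 400 Pa and 40.8 FPKM on 60 kPa at day 3.5, against 27.6 FPKM on 400 Pa and 23.7 FPKM on 60 kPa at day 0. It stood 6.94 to 7.83 times above UHRF1 in the 4 groups.

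The gels were compared within each day by the authors' own test. At day 3.5, 0 of the 6 tested members passed a q-value of 0.05 in the authors' deposited table, where 1.33% of 18225 loci did (1.08% higher on 400 Pa and 0.252% higher on 60 kPa). At day 0 again 0 of 6 passed in the authors' deposited table, where 0.139% of 17315 loci did (0.0635% higher on 400 Pa and 0.0751% higher on 60 kPa). None had an unadjusted p below 0.05 on either day in the authors' deposited tables, where 5.93% of the loci tested at day 3.5 and 1.86% of those at day 0 did. With so few calls over all loci, a missing call does not show equal levels.

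The member with the lowest p at day 3.5 was DNMT3B. It was at 78.3 FPKM on 400 Pa and 116 FPKM on 60 kPa, 1.48 times higher on 60 kPa (change -0.56; p = 0.0593 and q = 0.974 in the authors' deposited table). The standard error implied by the authors' deposited table, its log2 ratio divided by its test statistic, was 0.42, an approximation. The 95% interval of the log2 ratio of 400 Pa over 60 kPa built on it ran from -1.40 to 0.27. Such an implied SE belongs to the ratio without pseudocount, also where it stands beside a change of FPKM + 1. TET1 was 1.45 times higher on 60 kPa (change -0.51, implied SE 0.47; p = 0.104 in the authors' deposited table), with an interval from -1.45 to 0.39. The 5th percentile of the change over all tested loci was -0.81, so both lay above it.

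The other tested members lay closer to 0 at day 3.5. DNMT3A and UHRF1 had changes of -0.01 and -0.02, with implied SEs of 0.61 and 0.53. TET2 had 0.17 and TET3 0.27, with implied SEs of 0.93 and 1.84. The merged DNMT1 locus had a change of -0.30 with an implied SE of 0.85. For TET3 the 95% interval of the log2 ratio ran from -3.27 to 3.93. These intervals read the test statistic as normal. The p-value of TET3 in the authors' deposited table, 0.614, is lower than its statistic of 0.18 gives on that reading. The same holds for DNMT3B and TET1. The intervals are therefore too rough to say what size of difference could be detected.

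At day 0 the changes of the 6 tested members lay between -0.30 (TET3) and 0.23 (TET2), with a median of 0.09 beside 0.02 over all tested loci. DNMT3B had a change of 0.07 with an implied SE of 0.33, and TET1 had 0.02 with 0.33. The 95% interval of the log2 ratio of 400 Pa over 60 kPa was -0.57 to 0.72 for DNMT3B and -0.63 to 0.67 for TET1. These were the narrowest among the members. At day 3.5 the median of the 6 was -0.02 beside 0.02 over all loci. DNMT3B and TET1 both had a change above 0 at day 0 and below 0 at day 3.5, a difference between days that was not tested. Both day 0 changes fall below 0 when the groups are scaled to an equal sum without their 10 highest loci.

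**Figure D4:**
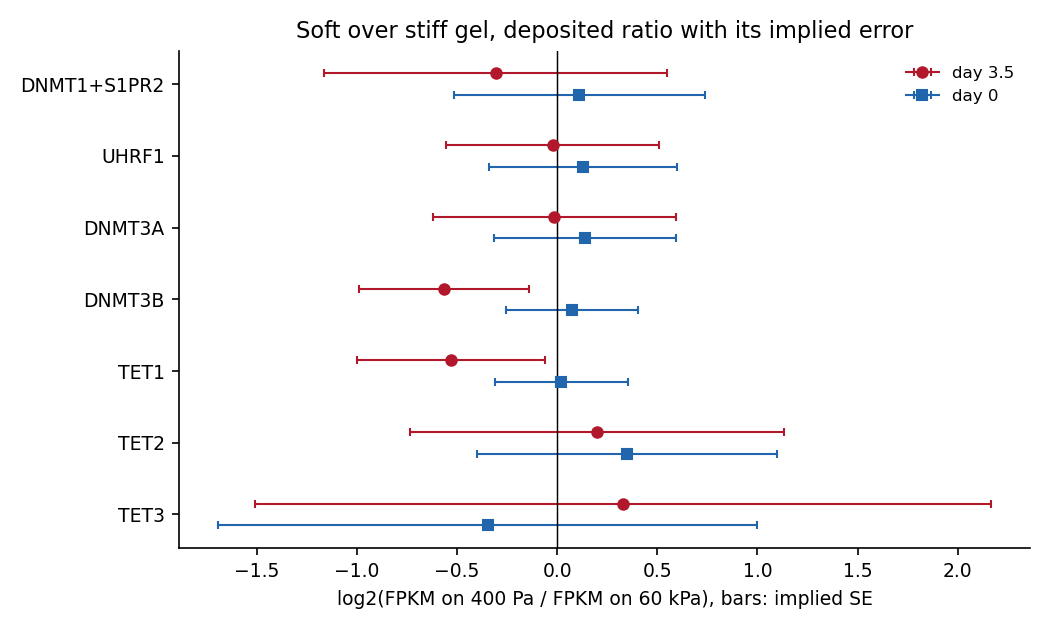
Log2 of the FPKM on 400 Pa over that on 60 kPa without pseudocount, for the 6 tested members and the merged DNMT1 locus at day 3.5 (red circles) and day 0 (blue squares); the bars are 1 standard error as implied by the authors' deposited tables. At day 3.5 only the DNMT3B and TET1 bars (-0.56 and -0.53) do not reach 0 in these 7 loci, and neither gene is called.

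Marker genes of the cells in culture varied across these groups as well. The summed FPKM of 6 pluripotency genes was 363 on 400 Pa and 612 on 60 kPa at day 3.5, against 850.0 on 400 Pa and 862 on 60 kPa at day 0. All 6 were at 1 FPKM or more in every group. Between days, 5 of the 6 lay below 0 on 400 Pa with a median of -1.13, and 3 of the 6 on 60 kPa with a median of 0.12. Of them, 4 were lower by 2-fold or more at day 3.5 on 400 Pa and 2 on 60 kPa, and ZFP42 was higher by that much on both. SOX2, a core pluripotency factor, had a change between days of -1.06 on 400 Pa and 0.49 on 60 kPa, and SALL4 of -0.63 on 400 Pa and 0.29 on 60 kPa. POU5F1, another core factor, had a change between days of -1.57 on 400 Pa and -1.74 on 60 kPa, and NANOG of -2.35 on 400 Pa and -2.64 on 60 kPa. LIN28A, an RNA-binding protein of stem cells, was at 131 FPKM on 400 Pa and 239 FPKM on 60 kPa at day 3.5, against 304 FPKM on 400 Pa and 249 FPKM on 60 kPa at day 0 (q = 0.165 at day 3.5 in the authors' deposited table). SOX2 was at 54.0 FPKM on 400 Pa and 164 FPKM on 60 kPa at day 3.5, against 114 FPKM on 400 Pa and 116 FPKM on 60 kPa at day 0; it had the largest change between gels of the list at day 3.5 (-1.59, implied SE 0.82; q = 0.519 in the authors' deposited table) and was named with SALL4 after their values were seen. Of the 6 genes, 5, all but ZFP42, were lowest in the cells induced on 400 Pa. The share of all genes lowest in that group was not counted, and a link to DNMT3B was not tested.

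Markers of other cell types bear on the label of mesoderm progenitors. Over all loci tested at day 3.5, 1.08% were called higher on 400 Pa and 0.252% higher on 60 kPa. At day 0 these shares were 0.0635% and 0.0751%, and they stand beside the calls of all marker lists. The 8 mesoderm markers summed to 164 FPKM on 400 Pa and 55.2 FPKM on 60 kPa at day 3.5, against 11.2 FPKM on 400 Pa and 15 FPKM on 60 kPa at day 0. At day 3.5 all 8 were at 1 FPKM or more on both gels, and at day 0 only KDR was. HAND1 and ISL1, factors of lateral mesoderm, were called higher on 400 Pa at day 3.5 in the authors' deposited table, with HAND1 at 53.8 FPKM on 400 Pa and 6.07 FPKM on 60 kPa. T, the primitive streak factor, had 12.01 FPKM on 400 Pa and 5.15 FPKM on 60 kPa at day 3.5 and stayed below 1 FPKM at day 0, as did MESP1.

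The 6 amnion and trophoblast markers, which share HAND1 with the mesoderm list, summed to 202 FPKM on 400 Pa and 35.4 FPKM on 60 kPa at day 3.5, against 14.3 FPKM on 400 Pa and 7.25 FPKM on 60 kPa at day 0, where CDX2 is not in the sum. CDX2, VTCN1, KRT7 and HAND1 were called higher on 400 Pa at day 3.5 in the authors' deposited table, and TFAP2A was called higher on 400 Pa at day 0 in the authors' deposited table; GATA3 was past 2-fold between days on both gels. The 5 neuroectoderm markers summed to 95.8 FPKM on 400 Pa and 237 FPKM on 60 kPa at day 3.5, against 154.5 FPKM on 400 Pa and 89.9 FPKM on 60 kPa at day 0. OTX2 made up most of each sum, at 69.3 FPKM on 400 Pa and 152 FPKM on 60 kPa at day 3.5, against 136 FPKM on 400 Pa and 82.2 FPKM on 60 kPa at day 0. PAX6 was below 1 FPKM on both gels at day 0. OTX2, LHX5 and HESX1 were called higher on 60 kPa at day 3.5 in the authors' deposited table, PAX6 was past 2-fold between days on both gels, and SOX1 was at 0.0267 FPKM or less throughout.

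The 4 endoderm markers summed to 10.9 FPKM on 400 Pa and 6.40 FPKM on 60 kPa at day 3.5, against 0.200 FPKM on 400 Pa and 0.189 FPKM on 60 kPa at day 0, where SOX17 is not in the sum. GATA6 was called higher on 400 Pa at day 3.5 in the authors' deposited table, CXCR4 was past 2-fold between days on both gels, and FOXA2 was at 0.0814 FPKM or less. GATA6 (6.76 FPKM on 400 Pa and 1.58 FPKM on 60 kPa) and CXCR4 (3.9 and 4.36 FPKM) made up most of the day 3.5 sums. SOX17 was at 0.2345 FPKM on 400 Pa and 0.38 FPKM on 60 kPa at day 3.5. The 6 naive pluripotency markers, known to go with DNMT3L, summed to 7.77 FPKM on 400 Pa and 7.10 FPKM on 60 kPa at day 3.5, against 5.43 FPKM on 400 Pa and 4.48 FPKM on 60 kPa at day 0, where KLF17 is not in the sum. KLF5 made up most of that sum at day 3.5, at 5.31 FPKM on 400 Pa and 4.21 FPKM on 60 kPa, and KLF4 stayed below 2 FPKM. The part of these cell types in the levels of DNMT3B and TET2 was not tested.

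The genes whose profile was most like that of DNMT3B were named by the root mean square difference of their log2(FPKM + 1), each centred on its own mean, over the 4 groups and among 9076 genes. They were the transcript RP11-436D23.1 (0.10), TERF1 (0.13), a protein of telomere repeats, and EPHA1-AS1 (0.13), an antisense RNA. TERF1 was at 28.0 FPKM on 400 Pa and 32.9 FPKM on 60 kPa at day 3.5, against 133 FPKM on 400 Pa and 140 FPKM on 60 kPa at day 0. Those most like TET1 were AP3M2 (0.02), a subunit of an adaptor complex, TIAL1 (0.02), an RNA-binding protein, and KCNT2 (0.03), a potassium channel. Those most like UHRF1 were DNMBP, ZNF710 and CEP44, each at 0.02. Each profile rests on 4 values, which is too few to read more from it.

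Genes around the members were followed as lists. Of 12 genes listed around the maintenance enzymes, TRDMT1 among them, 11 were tested on both days. None was called between the gels in the authors' deposited tables, and ZBTB24 lies in a merged locus. Their median change between days was -0.29 on 400 Pa and -0.36 on 60 kPa. PCNA, the replication clamp that binds DNMT1, was at 193 FPKM on 400 Pa and 178 FPKM on 60 kPa at day 3.5, against 236 FPKM on 400 Pa and 247 FPKM on 60 kPa at day 0. HELLS, a remodeller needed for methylation of heterochromatin, was at 80.1 FPKM on 400 Pa and 102 FPKM on 60 kPa at day 3.5, against 130 FPKM on 400 Pa and 133 FPKM on 60 kPa at day 0. Lower by 2-fold or more on 400 Pa were 2, CDCA7, the partner of HELLS (change -1.14), and its paralogue CDCA7L (-1.42), both named after their values were seen.

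Replication genes were lower at day 3.5 as a group. Of 12 with a row of their own, 11 lay below 0 on 400 Pa and 12 on 60 kPa, with medians of -0.74 and -0.44, beside 0.00 over all expressed genes. MCM5, a subunit of the replicative helicase, had changes of -0.95 and -0.65, and MCM3 had -0.72 and -0.34. CDC6 (-1.18) and CDT1 (-1.13), both loaders of that helicase, were past 2-fold on 400 Pa, named after their values were seen. UHRF1, whose change was 0.37 and 0.49, lay on the other side of 0 from these genes, TYMS on 400 Pa excepted (0.10). None of the 12 was called between the gels in the authors' deposited tables.

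Around the TET enzymes, 17 genes of active demethylation and repair were tested on each day. At day 3.5, 1 of them passed in the authors' deposited table, where 1.33% of all tested loci did. At day 0 none did, beside 0.139% of all tested loci. The 1 called was GADD45G, higher on 400 Pa, a stress-induced protein linked to demethylation and to growth arrest. GADD45G was at 12.4 FPKM on 400 Pa and 1.59 FPKM on 60 kPa at day 3.5, against 6.70 FPKM on 400 Pa and 8.25 FPKM on 60 kPa at day 0. Its change at day 3.5 was 2.37 (q = 0.00783 in the authors' deposited table). The implied SE of its ratio without pseudocount was 0.88. OGT, the sugar transferase that binds TET proteins, was at 89.0 FPKM on 400 Pa and 112 FPKM on 60 kPa at day 3.5, against 105 FPKM on 400 Pa and 86.3 FPKM on 60 kPa at day 0. POLB, the polymerase of base excision repair, was at 131 FPKM on 400 Pa and 104 FPKM on 60 kPa at day 3.5, against 101 FPKM on 400 Pa and 135 FPKM on 60 kPa at day 0. The list had a median change between days of 0.36 on 400 Pa and -0.03 on 60 kPa.

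The 7 measured readers of methylated CpG were all higher at day 3.5 on 400 Pa and 6 were on 60 kPa, with medians of 0.37 and 0.25 and none past 2-fold. MBD4, a glycosylase that binds methylated CpG and stands in the demethylation list as well, was at 30.7 FPKM on 400 Pa and 29.4 FPKM on 60 kPa at day 3.5, against 27.9 FPKM on 400 Pa and 29.9 FPKM on 60 kPa at day 0. MBD1 was at 26.5 FPKM on 400 Pa and 23.5 FPKM on 60 kPa at day 3.5, against 24.0 FPKM on 400 Pa and 19.6 FPKM on 60 kPa at day 0. Proteins that bind unmethylated CpG through a CXXC domain had medians of -0.50 on 400 Pa and 0.17 on 60 kPa over 6 genes. CXXC1 was at 41.9 FPKM on 400 Pa and 29.3 FPKM on 60 kPa at day 3.5, against 31.9 FPKM on 400 Pa and 26.4 FPKM on 60 kPa at day 0. KDM2B was at 13 FPKM on 400 Pa and 18.7 FPKM on 60 kPa at day 3.5, against 16.4 FPKM on 400 Pa and 16.3 FPKM on 60 kPa at day 0. No gene of either list was called on either day in the authors' deposited tables.

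Supply of the methyl donor and of 2-oxoglutarate, which TET enzymes consume, was followed over 17 genes. None was called between the gels in the authors' deposited tables. The median change between days was -0.26 on 400 Pa and -0.18 on 60 kPa. SLC3A2, a subunit of amino acid transporters, was at 320.4 FPKM on 400 Pa and 234 FPKM on 60 kPa at day 3.5, against 256 FPKM on 400 Pa and 252 FPKM on 60 kPa at day 0. SHMT2, a mitochondrial enzyme of one-carbon metabolism, was at 121 FPKM on 400 Pa and 109.9 FPKM on 60 kPa at day 3.5, against 183 FPKM on 400 Pa and 185 FPKM on 60 kPa at day 0. Past 2-fold, and named after their values were seen, were IDH2, which makes 2-oxoglutarate, at 61.5 FPKM at day 3.5 and 29.8 FPKM at day 0 on 400 Pa, and D2HGDH, which clears an inhibitor of TET enzymes, at 14 FPKM at day 3.5 and 6.38 FPKM at day 0 on 60 kPa. MTRR, which restores methionine synthase, was lower on 400 Pa (-1.11).

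**Figure D5:**
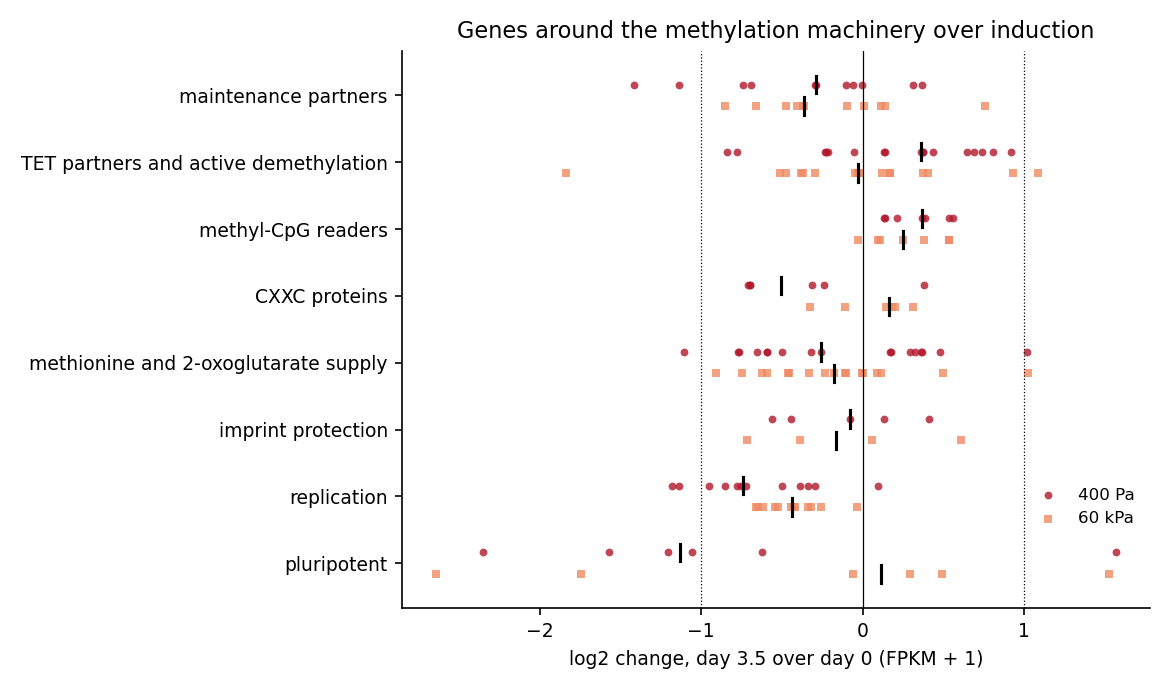
Log2 change of FPKM + 1, day 3.5 over day 0, of genes around the methylation machinery and of 6 pluripotency genes, with 1 point per gene at 1 FPKM or more, circles for 400 Pa and squares for 60 kPa; black bars are medians and dotted lines mark 2-fold. Replication genes lie mostly below 0 with medians of -0.74 and -0.44, readers of methylated CpG mostly above with 0.37 and 0.25.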

How the data were processed

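RNA of 8 libraries in 4 groups of 2 was sequenced. The deposited tables, 1 per day, give 1 FPKM per locus and group; the authors used Cufflinks and hg19, per the submitters' processing notes. For aligner, annotation and versions, nothing is given in the sources used here. Each deposited row adds the log2 ratio (60 kPa over 400 Pa), the test statistic as a score, its p-value and its q-value. Their p-values reflect how these libraries vary, and that variation may be technical. A new Benjamini-Hochberg adjustment returned the deposited q-values.

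A symbol with several rows took its row of highest mean. Calls are those of the authors' deposited tables at a q-value below 0.05, over loci with status OK and at least 1 FPKM in a group. Genes were compared between days where a group of that gel had at least 1 FPKM, past 2-fold or not. No test over libraries was run, since no value per library was at hand. The 10 highest loci held 44.9% to 52.1% of the summed FPKM of a group.

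Members and lists were chosen with earlier results of these data known. Named beside the members were, per list, called genes, up to 4 genes past 2-fold on both gels and the 2 of highest mean FPKM, and the 3 most similar profiles of DNMT3B, TET1 and UHRF1; DNMT1 was left out there, having no row of its own, and the endoderm, amnion and other marker lists are given mainly by their sums. Alternatives were other pseudocounts, scalings, FPKM minimums, thresholds and summed rows. Steps were tested on simulated data. Software was Python 3.11.15 with matplotlib 3.10.9, scipy 1.17.1, numpy 2.4.6 and pandas 2.3.3.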

Additional observations from a re-analysis of the deposited data

How the results depend on the processing

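The lower DNMT3B and the higher TET2 at day 3.5 kept their direction and stayed past 2-fold on both gels under every pseudocount, scaling, FPKM minimum and row choice tried. The DNMT3B change ran from -2.54 to -2.38 on 400 Pa and from -1.91 to -1.69 on 60 kPa, and that of TET2 from 1.13 to 1.53 and from 1.21 to 1.66. At a fold of 3, with the pseudocount of 1 FPKM, TET2 no longer passed (0 members higher on either gel). Without a pseudocount TET2 was 2.97 times higher at day 3.5 on 400 Pa and 3.29 times higher on 60 kPa. At a fold of 1.5 TET3 passed as well on 60 kPa (2 members lower). No member was called under any threshold tried, an unadjusted p below 0.05 included. Scaling to an equal sum without the 10 highest loci shifted the median of all genes between days by -0.10 on 400 Pa and -0.11 on 60 kPa. Under it the day 0 changes between gels of DNMT3B and TET1 became -0.00496 and -0.0566, and centring on the median gave -0.0053 for TET1. The other changes of the 6 tested members and of the merged DNMT1 locus kept their sign. The changes of DNMT3L, which is below 1 FPKM in every group, were not followed under these alternatives.

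Counts over all loci moved with the threshold. At a q-value below 0.01 the calls were 128 at day 3.5 (108 higher on 400 Pa, 20 on 60 kPa) and 0 at day 0 (0 and 0). At an unadjusted p below 0.05 in the authors' deposited tables they were 1080 (691 and 389) and 322 (157 and 165), against 243 (197 and 46) and 24 (11 and 13) as reported. Genes past the fold, higher and lower at day 3.5, were 1566 and 976 on 400 Pa and 1074 and 676 on 60 kPa. At a fold of 1.5 these were 3089, 2572, 2496 and 2034, and at a fold of 3 they were 665, 313, 365 and 232. With a pseudocount of 0.1 lower genes on 400 Pa were 1581, and higher and lower genes on 60 kPa 1821 and 1067. With an FPKM minimum of 5 higher genes were 984 on 400 Pa and 608 on 60 kPa.

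No paired analysis was possible because the deposited tables give 1 value per group. For the same reason leaving out a replicate was not run.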

Other observations

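Germ line genes, several of which are known in mouse to be held silent by DNA methylation, were mostly near 0. Of 8 listed, 7 were in both tables, and DAZL alone reached 1 FPKM in a group. DAZL, an RNA-binding protein of germ cells, was at 1.27 FPKM on 400 Pa and 5.8 FPKM on 60 kPa at day 3.5, against 22.9 FPKM on 400 Pa and 25.3 FPKM on 60 kPa at day 0. It was lowest on 400 Pa at day 3.5, without a call between the gels (q = 0.12 in the authors' deposited table). Its change was -1.58, and the implied SE of its ratio without pseudocount was 1.30. TDRD1, a protein of the piRNA pathway, was at 0.424 FPKM on 400 Pa and 0.374 FPKM on 60 kPa at day 3.5, against 0.178 FPKM on 400 Pa and 0.108 FPKM on 60 kPa at day 0.

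Among genes that protect imprints, TRIM28, a corepressor, was at 639 FPKM on 400 Pa and 632 FPKM on 60 kPa at day 3.5, against 871 FPKM on 400 Pa and 829 FPKM on 60 kPa at day 0. NLRP2, a maternal-effect gene, was at 48.0 FPKM on 400 Pa and 44.6 FPKM on 60 kPa at day 3.5, against 71.4 FPKM on 400 Pa and 73.9 FPKM on 60 kPa at day 0. No gene of this list was called on either day in the authors' deposited tables, and the median change between days was -0.08 over 5 genes on 400 Pa and -0.16 over 4 on 60 kPa.

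In the authors' tables TET1 shares its interval with COX20P1, at 18 FPKM on 400 Pa and 13.8 FPKM on 60 kPa at day 3.5, against 19.9 FPKM on 400 Pa and 23.5 FPKM on 60 kPa at day 0. TET2 shares its interval with TET2-AS1, below 1 FPKM in all 4 groups. The merged DNMT1 locus shares its interval with CTD-2369P2.2, at 14.1 FPKM on 400 Pa and 12.8 FPKM on 60 kPa at day 3.5, against 7.87 FPKM on 400 Pa and 8.39 FPKM on 60 kPa at day 0. Whether the authors counted by strand is not given in the sources used here, so reads of overlapping genes cannot be told apart.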
